A study of Danio rerio with 6 samples.

Results

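Collagens and the genes that build, crosslink and cut the extracellular matrix were followed in livers of adult capn3b-/- mutant and wild type AB zebrafish. They were the rows of the deposited gene table named as a collagen, a matrix metalloproteinase, a tissue inhibitor of metalloproteinases (timp), an adamts or adamts-like gene, a laminin chain, a fibronectin, a lysyl oxidase, a sparc family member or a tgfb gene. Names were matched by their beginnings in lower case, and mmp9 and mmp13a were left out. The table of 23354 genes held 121 such rows with 119 distinct names, since col6a3 and adamts15b each stood for a pair of identifiers. By function they comprised 15 fibrillar collagens, 20 basement membrane genes, 24 other collagens, 30 matrix proteases, 3 timp genes, and 13 matrix glycoproteins and crosslinking enzymes. Named for TGF-beta were 10 genes (its ligands, its receptors and tgfbi, a secreted adhesion protein that it induces in mammalian cells) and tgfbrap1. The rest were 2 adamts-like genes and 3 genes that are not matrix genes by function (col4a3bpa, col4a3bpb and loxhd1b). A further 11 rows carry such names in capitals and were not matched.

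RNA sequencing compared livers dissected from adult fish of 2 genotypes, capn3b-/- mutant (3 libraries) and wild type AB, a laboratory strain (3 libraries). The gene capn3b encodes one of the zebrafish forms of calpain 3, a calcium-dependent protease, and the series asked which genes differ between these livers. The labels describe neither the mutant allele nor the sex or exact age of the fish, and do not say that libraries came from separate animals or that the wild type fish were siblings of the mutants. A difference in sex or family background therefore cannot be told apart from genotype, and p-values measure the spread between these libraries, which may be technical.

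In mammalian liver, fibrillar collagens form the rope-like fibres of the portal tracts and capsule. Type IV collagen and laminins form the sheet-like basement membranes around vessels and ducts. In mammals the fibrillar collagens of the liver come mainly from stellate cells and portal fibroblasts, which TGF-beta drives towards matrix production, while hepatocytes secrete plasma fibronectin into the blood. Lysyl oxidases crosslink collagen and elastin, metalloproteinases cut the matrix, and timp proteins bind and block metalloproteinases.

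Levels are given as FPKM (fragments scaled to the length of the gene and to the total of the library). Comparisons between genes depend on the gene length used. The FPKM values were not scaled to a common sum, and added up to between 568019 and 596888 per library. The reads behind them could be recovered as whole numbers for 100% of the genes (within 0.05 reads), at depths of 16858409 to 19492592 reads. The libraries separated by genotype along the first principal component of the tested genes (58.9% of the variance). The mutated gene capn3b had 1 read in mutant replicate 3 and 0 in the other 5 libraries, and so checks no label. Of the 121 genes, 36 reached 1 FPKM in at least 3 libraries and were tested. The other 85 stayed below this filter, and 27 of the 121 had fewer than 10 reads in all 6 libraries together. Just inside the filter stood col1a1a and col6a3, each with 3 libraries at 1 FPKM or more, and just outside stood adamtsl7 and mmp20a with 2. No gene passed through the libraries of 1 genotype alone.

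Among the 36 tested genes, 4 changed between the genotypes. The proteases mmp14a and mmp11b were higher in the mutant, and the inhibitor timp2a and the crosslinking enzyme loxl2a were lower (limma on log2(FPKM + 1), Benjamini-Hochberg adjusted p under 0.05 over 11164 genes). This was 11.1% of those tested, beside 11.4% of all tested genes (5.91% higher and 5.45% lower), so the share called was close to that over all genes. The mutant libraries lay wholly above the wild type libraries in 12 of the 36 genes and wholly below in 4, which is 44.4% beside 33.8% of all tested genes (19.1% above, 14.7% below). The median log2 fold change was 0.22 beside 0.05 over all tested genes. Each of the 4 calls was lost on leaving out at least 1 library. Without mutant replicate 1 there were 0 calls among these genes, and without wild type replicate 2 also 0. Without mutant replicate 3 there was 1, and without any one of mutant replicate 2 and wild type replicates 1 and 3 there were 2. Over the whole table the 1268 calls came to 516 without mutant replicate 1, 536 without mutant replicate 2, 801 without wild type replicate 1 and 414 without wild type replicate 2. Without mutant replicate 3 they came to 1134, or 10.2% of all tested genes beside 2.78% of this set. Without wild type replicate 3 they came to 1085, or 9.72% beside 5.56%. Adding 1 before taking logs shrinks the log2 fold changes of genes near 1 FPKM, which covers most of the genes described here.

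**Figure D1:**
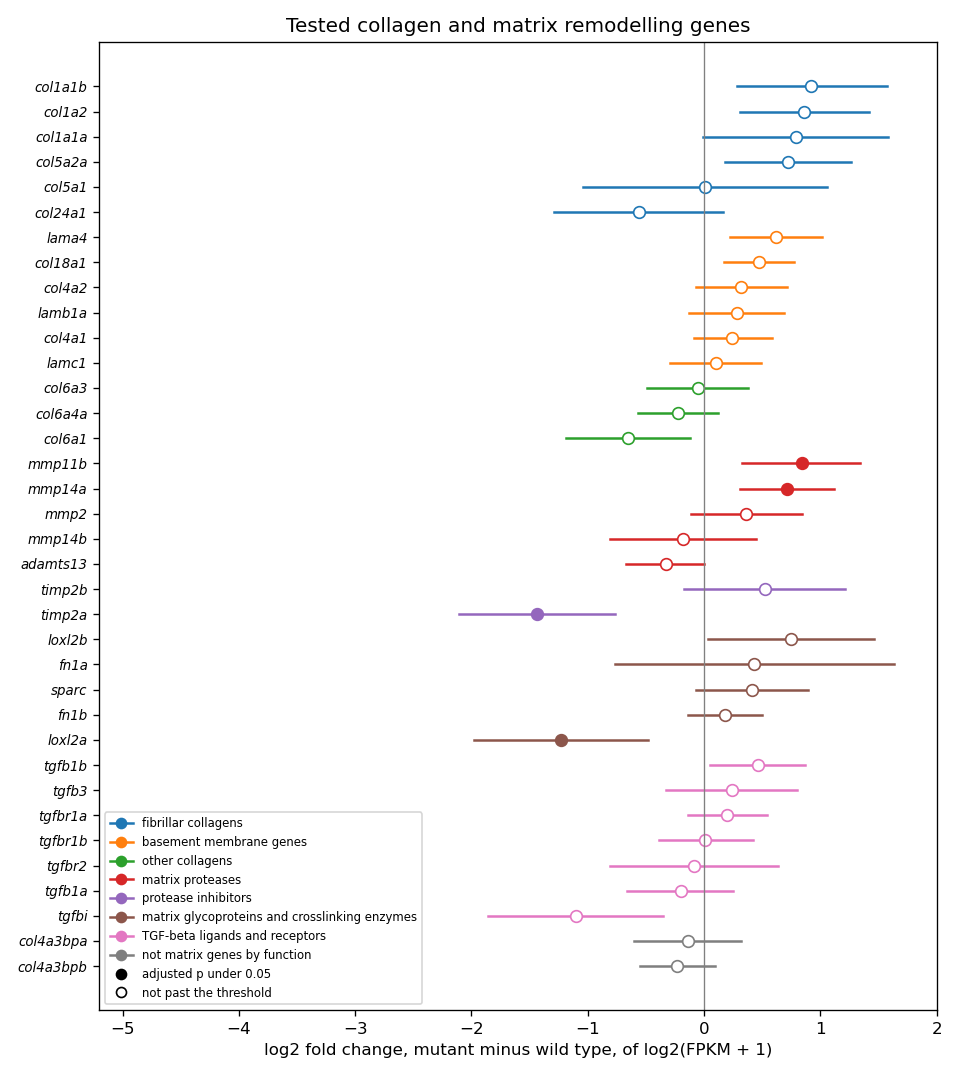
Log2 fold change (mutant minus wild type, x axis, on the log2(FPKM + 1) scale) of the 36 tested genes (y axis), coloured by role, with 95% confidence intervals as lines and filled points for an adjusted p under 0.05. The filled points are mmp11b and mmp14a to the right of 0 and timp2a and loxl2a to the left, and the intervals of col5a1 and fn1a span both sides widely.

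Among the 36 tested genes, timp2a had the largest fall on the log2(FPKM + 1) scale (ENSDARG00000061226, chromosome 12, 33889964 to 33934381, minus strand, with positions from the deposited table, for which the submitters' processing notes name GRCz11). Its mammalian counterpart TIMP2 blocks metalloproteinases and also takes part, together with MMP14, in the activation of pro-MMP2 at the cell surface. The mutant libraries held 2.57, 3.39 and 5.18 FPKM and the wild type libraries 7.37, 14.2 and 14.3. Every mutant library was below every wild type library, and wild type replicate 1 was the lowest of its group. The means of 3.71 ± 1.33 and 12.0 ± 3.98 FPKM (SD, n = 3 each) differed by a factor of 3.22, with a log2 fold change of -1.44 (standard error 0.29, 95% interval -2.11 to -0.77, limma adjusted p = 0.0209). The call held in 9 of 14 alternative analyses, whose adjusted p ranged from 0.0125 to 0.0805. It was lost when mutant replicate 1 (0.0675) or 2 (0.0662) was left out, when wild type replicate 2 (0.0805) or 3 (0.053) was, and with no filter on low values (0.0643). The span of timp2a overlaps sfxn2, and no source says that reads were assigned by strand, so reads of these genes may be shared.

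The paralogue timp2b stood at 0.684, 2.87 and 1.93 FPKM in the mutant and 1.05, 0.532 and 1.05 in the wild type. The groups overlapped, with mutant replicate 1 among the wild type values, and the log2 fold change of 0.52 did not pass the test (95% interval -0.17 to 1.21, limma adjusted p = 0.298). Within a library, timp2a was 1.18 to 3.76 times as abundant as timp2b in the mutant and 7.03 to 26.7 times in the wild type, a ratio chosen after the values were seen. The remaining inhibitor gene, timp4a, had at most 3 reads in a library.

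The matrix proteases numbered 30, of which only 5 were tested. Of these 2 were called higher and none lower, beside 5.91% and 5.45% of all tested genes. The membrane-anchored metalloproteinase mmp14a (ENSDARG00000002235, chromosome 7, 23853132 to 23878513, minus strand), whose mammalian counterpart cuts collagen at the cell surface, was at 2.44, 3.18 and 2.81 FPKM in the mutant and 0.936, 1.27 and 1.83 in the wild type. All mutant libraries were higher, by a factor of 2.09 between the means of 2.81 ± 0.374 and 1.34 ± 0.45 FPKM (SD, n = 3 each). This was a log2 fold change of 0.71 (standard error 0.18, limma adjusted p = 0.039). The call held in 6 of 13 alternatives (adjusted p 0.0291 to 0.124) and was lost on leaving out any mutant library (0.0786, 0.124 and 0.0814 for replicates 1 to 3), wild type replicate 1 (0.103) or wild type replicate 2 (0.111). Its span overlaps gmpr2, with which reads may be shared.

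The secreted metalloproteinase mmp11b (ENSDARG00000016718, chromosome 21, 15540563 to 15578825, minus strand), a relative of mammalian stromelysin-3, stood at 3.65, 2.04 and 3.47 FPKM in the mutant and 1.06, 1.78 and 0.933 in the wild type. The groups did not overlap, but mutant replicate 2 lay close to wild type replicate 2. The means of 3.05 ± 0.886 and 1.26 ± 0.459 FPKM (SD, n = 3 each) differed by a factor of 2.42, with a log2 fold change of 0.84 (standard error 0.22, limma adjusted p = 0.0472). This call was the least stable of the 4, holding in 2 of 13 alternatives (adjusted p 0.037 to 0.14). Leaving out any wild type library lost it (0.121, 0.0623 and 0.102 for replicates 1 to 3), as did leaving out mutant replicate 1 (0.14) or 3 (0.111). The related gene mmp11a, below the filter, had 6, 10 and 12 reads in the mutant and 17, 24 and 17 in the wild type.

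Of the other tested proteases, adamts13 was the most abundant. It encodes the plasma enzyme that trims von Willebrand factor, which in mammals comes from hepatic stellate cells. Its level was 45.3, 42.8 and 45.2 FPKM in the mutant and 65.4, 52.5 and 51.8 in the wild type. All mutant libraries were lower, though the log2 fold change of -0.33 did not pass the test (95% interval -0.67 to 0.00, limma adjusted p = 0.177). The gelatinase mmp2 stood at 5.41, 6.21 and 9.28 FPKM against 4.26, 6.0 and 5.05, with overlapping groups (0.36, 95% interval -0.11 to 0.84, limma adjusted p = 0.294). For mmp14b, the paralogue of mmp14a, the values were 3.42, 3.80 and 8.09 FPKM against 5.71, 4.70 and 6.27 (-0.18, 95% interval -0.81 to 0.45, limma adjusted p = 0.717). Its mutant replicate 3 was the highest of the 6 libraries and its other mutant libraries the lowest, and without mutant replicate 1 the sign turned (0.02). Both proteases left out by the rule were also low in the wild type. The values were 0.998, 1.62 and 1.92 FPKM against 0.311, 0.591 and 0.473 for mmp9, which was below the filter, and 1.06, 2.77 and 3.93 against 0.479, 0.0933 and 0.153 for mmp13a, which reached 1 FPKM in the mutant libraries alone.

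**Figure D2:**
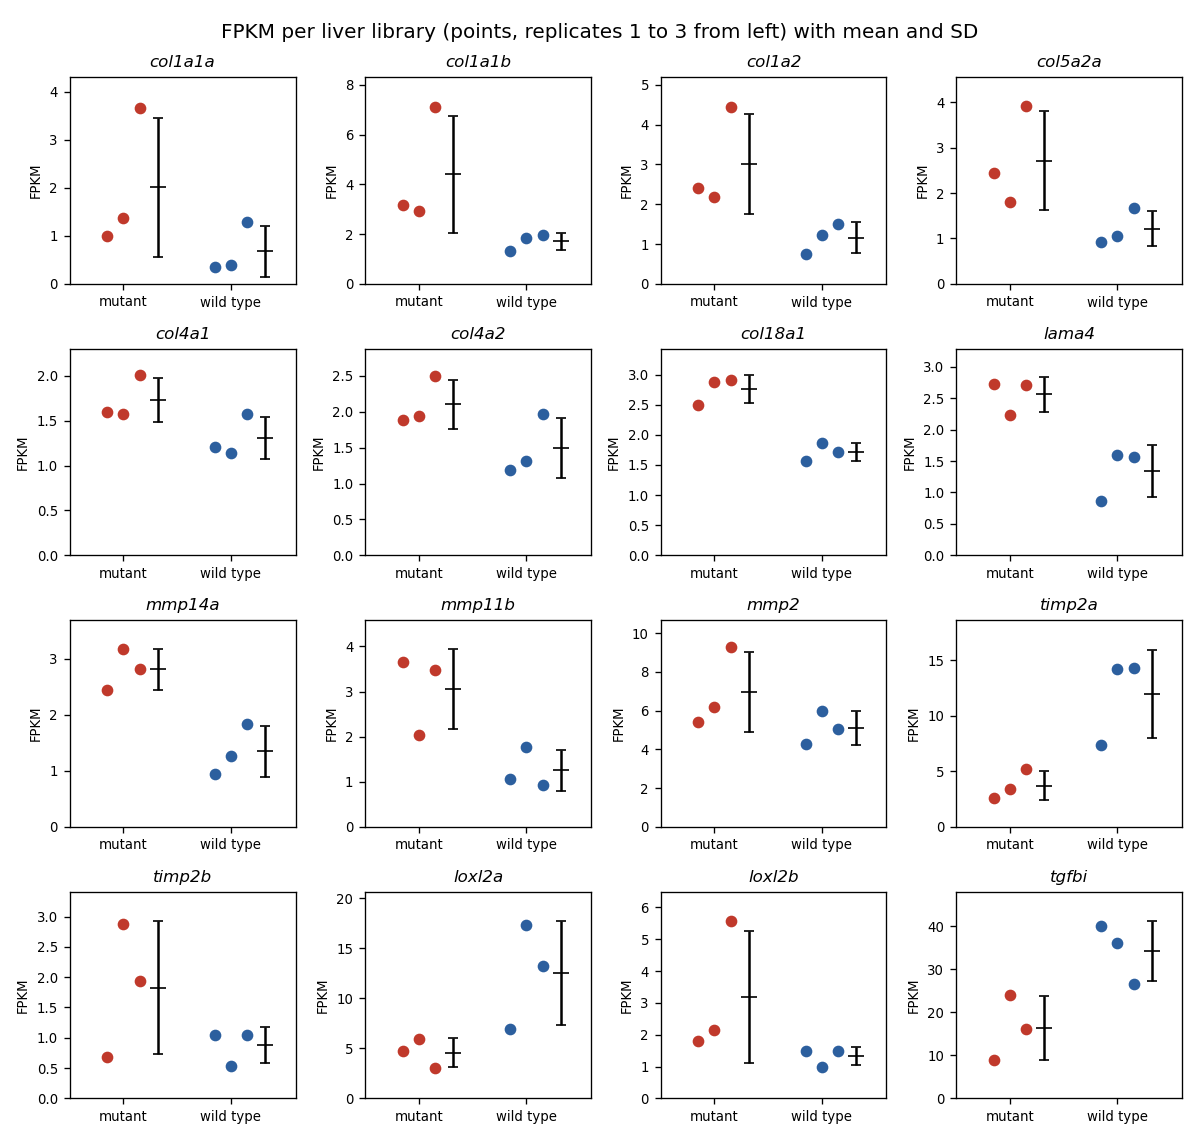
FPKM per library (y axis, linear from 0) of 16 genes in mutant and wild type liver, with replicates 1 to 3 as points from left to right and the group mean with its SD beside them. For timp2a and loxl2a all mutant points lie below the wild type points, for mmp14a and mmp11b all lie above, and mutant replicate 3 is the highest point for col1a1a, col1a1b, col1a2 and col5a2a.

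Within each library, the ratios of mmp14a and of mmp2 to timp2a were higher in the mutant. The denominator was the tested gene of this set with the largest fall, so an unchanged gene would also give a higher ratio. For mmp2 itself the groups overlapped, and mmp14b, the more abundant paralogue of mmp14a, was not set against timp2a. The ratio of mmp14a to timp2a in FPKM was 0.947, 0.938 and 0.542 in the mutant and 0.127, 0.0896 and 0.127 in the wild type. For mmp2 over timp2a it was 2.1, 1.83 and 1.79 against 0.579, 0.423 and 0.352. Neither pair of groups overlapped. These ratios were chosen after the values were seen, describe transcripts rather than proteins, and were not tested.

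**Figure D3:**
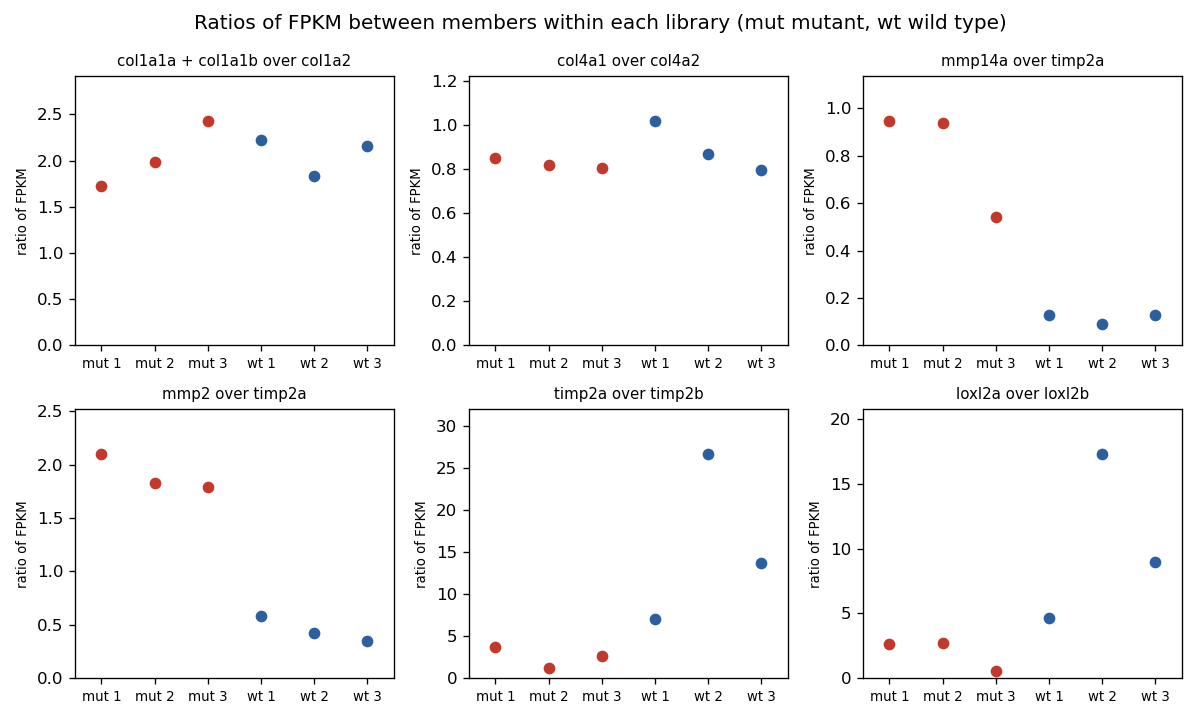
Ratios of FPKM between pairs of genes within each library (y axis, linear from 0), for mutant (mut) and wild type (wt) replicates 1 to 3. The sum of col1a1a and col1a1b over col1a2 runs from 1.73 to 2.43 over all libraries, and col4a1 over col4a2 from 0.795 to 1.02. Every mutant library is higher for mmp14a and mmp2 over timp2a and lower for timp2a over timp2b and loxl2a over loxl2b.

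None of the 6 tested fibrillar collagens passed the threshold, although 5 of them had a log2 fold change above 0 (with col5a1, the smallest, turning below 0 under median or quantile scaling) and 3 had all mutant libraries above the wild type. Over all tested genes 11.4% passed the threshold, and the shares with these signs and groups were 55.8% and 19.1%. The median log2 fold change of the 6 was 0.75, beside 0.05 over all tested genes. Type I collagen, the main fibre of scars, is encoded in zebrafish by col1a1a, col1a1b and col1a2. The gene col1a2 (ENSDARG00000020007, chromosome 19, 41396101 to 41415860, plus strand) was at 2.41, 2.17 and 4.45 FPKM in the mutant and 0.749, 1.23 and 1.51 in the wild type. For col1a1b (ENSDARG00000035809, chromosome 12, 3060966 to 3098750, minus strand) the values were 3.17, 2.93 and 7.13 against 1.32, 1.85 and 1.97. In both genes every mutant library exceeded every wild type library and mutant replicate 3 stood apart as the highest. Their log2 fold changes were 0.86 for col1a2 (95% interval 0.31 to 1.42, limma adjusted p = 0.055) and 0.92 for col1a1b (0.28 to 1.57, limma adjusted p = 0.0713). Over the alternatives the adjusted p of col1a2 ranged from 0.0388 to 0.145 and passed in 3 of 13, whereas that of col1a1b ranged from 0.053 to 0.179 and never passed. The span of col1a2 overlaps si:ch211-120e1.7.

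The paralogue of col1a1b, col1a1a, was at 0.992, 1.38 and 3.67 FPKM in the mutant and 0.349, 0.394 and 1.29 in the wild type. Wild type replicate 3 lay among the mutant values, and the log2 fold change was 0.79 (95% interval -0.01 to 1.58, limma adjusted p = 0.182, 0.0436 to 0.381 over the alternatives). The ratio of the group means was 2.97, and without mutant replicate 3 it came to 1.75. Even as their levels differed between libraries, the chains of type I collagen kept a steady proportion. The summed FPKM of col1a1a and col1a1b over that of col1a2 was 1.73, 1.98 and 2.43 in the mutant and 2.22, 1.83 and 2.16 in the wild type. Between the summed genes the proportion was less steady, with col1a1b over col1a1a running from 1.52 to 4.69. The mammalian protein holds its chains at a ratio of 2, but the values here describe transcripts.

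Type V collagen, which seeds and limits the width of type I fibres, gave an uneven picture. The gene col5a2a was at 2.44, 1.80 and 3.91 FPKM against 0.932, 1.05 and 1.66, with the mutant above throughout (log2 fold change 0.72, 95% interval 0.18 to 1.26, limma adjusted p = 0.0854). In contrast col5a1 was scattered, at 4.58, 0.938 and 2.93 against 1.92, 5.10 and 1.32, so that neither group was the higher (0.01, 95% interval -1.04 to 1.06, limma adjusted p = 0.99). Its sign turned under 9 settings, as listed in the closing section. By FPKM the most abundant tested fibrillar collagen was col24a1, at 5.37, 6.31 and 11.1 FPKM against 8.79, 17.3 and 9.26 (-0.56, 95% interval -1.29 to 0.16, limma adjusted p = 0.284). The length behind its FPKM was only 1185 bases, beside 9767 for col5a1. By reads over all libraries col24a1 had 1233, fewer than col5a1 with 2936. Of the 9 fibrillar collagens below the filter, col2a1b and col27a1b had the most reads. For col2a1b there were 14, 13 and 74 mutant and 133, 45 and 45 wild type reads, with overlapping groups. For col27a1b there were 19, 33 and 42 against 2, 2 and 10, with all mutant libraries higher.

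Mutant replicate 3 was the highest library for several of these genes and for some, not all, markers of matrix-producing cells. In this library wt1b, a mesothelial and stellate lineage transcription factor, was at 10.1 FPKM beside 1.16 and 2.22 in the other mutant libraries and 0.307 to 0.69 in the wild type, and decorin (dcn), which coats collagen fibrils, was at 3.45 FPKM beside 0.486 to 0.797 in the other 5. Of 25 stellate cell and fibroblast marker genes, 14 were tested, 2 rose (myl9a and myl9b, myosin light chains of contractile cells) and none fell. All mutant libraries were above the wild type in 8 of the 14, of which 2 reached the filter through the mutant libraries alone, and the median log2 fold change was 0.53. Over all tested genes 5.91% were called higher and 5.45% lower, 19.1% had the mutant wholly above, and the median was 0.05. The list summed to 136, 500 and 187 FPKM in mutant replicates 1 to 3 and to 74.8 to 97.6 in the wild type, so that replicate 2 was the highest. Without steap4, its most abundant gene, the sums were 61.4 to 86.6 and 42.4 to 52.7. Its defining markers did not all move alike. The retinol-storage enzyme lrata stood at 7.09 to 13.2 FPKM over all libraries, acta2 at 4.29 to 8.25, pdgfra at 0.116 to 0.371, and desmb, gfap and lum were at 0 in at least 4 libraries. The part of these markers in the collagen values was not tested, and in whole liver more cells of a type and more RNA per cell cannot be told apart.

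The log2 fold changes of the tested basement membrane genes were of the same sign, with a smaller median than those of the fibrillar collagens. The medians were not compared by a test. All 6 tested had a log2 fold change above 0, 4 had every mutant library above every wild type library, and none passed the threshold. Over all tested genes 55.8% had a log2 fold change above 0, 19.1% had the mutant wholly above and 11.4% passed the threshold. The median of the 6 was 0.30. Among the 14 genes below the filter the signs were mixed. For lamb2 there were 65, 47 and 64 mutant reads against 29, 14 and 38, and for lama3 6, 4 and 7 against 16, 13 and 8. The laminin chain lama4, typical of vessel walls, was at 2.73, 2.24 and 2.71 FPKM in the mutant and 0.866, 1.6 and 1.56 in the wild type. The gene col18a1, whose protein is the source of endostatin, was at 2.50, 2.88 and 2.91 against 1.56, 1.87 and 1.72. In both the groups did not overlap, the wild type libraries of lama4 being more spread than those of col18a1. Neither passed the threshold, with log2 fold changes of 0.62 (95% interval 0.22 to 1.01, limma adjusted p = 0.0566) and 0.47 (0.17 to 0.77, limma adjusted p = 0.0544). Each passed in 2 of 13 alternatives, both of them limma voom on recovered reads. The adjusted p ranged from 0.0375 to 0.159 for lama4 and from 0.029 to 0.157 for col18a1. On the same genes as the main test, voom called 12.4% of 11164 (6.33% higher and 6.09% lower). With a filter of 10 reads in 3 libraries, chosen after seeing the data, it called 9.1% of 14962 (4.63% higher and 4.46% lower). The gene lama4 lies on chromosome 20, the chromosome of capn3b, 25.8 Mb from it.

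The main chains of type IV collagen, col4a1 and col4a2, are neighbours on chromosome 9, on opposite strands, with 60082 bases between them. Their FPKM were 1.6, 1.58 and 2.01 against 1.21, 1.14 and 1.57 for col4a1, and 1.88, 1.94 and 2.50 against 1.19, 1.32 and 1.97 for col4a2. The former did not overlap by a margin of 0.01 FPKM between rounded values, the latter did overlap. Neither passed (0.24, 95% interval -0.09 to 0.58, limma adjusted p = 0.319 for col4a1, and 0.32, -0.07 to 0.71, limma adjusted p = 0.254 for col4a2). The ratio of col4a1 to col4a2 stayed between 0.795 and 1.02 in all 6 libraries. The laminin chains lamb1a and lamc1, partners in the common laminin trimers, had log2 fold changes of 0.28 and 0.10. The most abundant was lamc1, at 3.06, 3.46 and 3.74 FPKM against 2.62, 2.75 and 4.11, with wild type replicate 3 the highest of all. Of 16 tested markers of endothelial cells, a known source of these genes, none passed the threshold, beside 11.4% of all tested genes. The summed level of the list was 49.2 to 56.4 FPKM in the mutant and 49.1 to 53.5 in the wild type. The part of these cells in the basement membrane values was not tested.

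The other collagens included 24 genes, of which only chains of type VI collagen, a beaded microfibril, were abundant enough to test. The gene col6a1 was at 5.75, 4.82 and 6.43 FPKM in the mutant and 12.7, 10.2 and 6.42 in the wild type. Wild type replicate 3 matched the highest mutant library, so the groups overlapped, with a log2 fold change of -0.65 (95% interval -1.19 to -0.12, limma adjusted p = 0.111). Without that library it passed (0.0303, the lowest of a range up to 0.281). For col6a4a the values were 4.45, 3.60 and 5.07 against 4.93, 5.04 and 5.75 (-0.22, limma adjusted p = 0.377), and for the tested identifier of col6a3 they were 0.995, 0.62 and 1.48 against 0.88, 1.22 and 1.15 (-0.05, limma adjusted p = 0.888). The spans of both col6a3 identifiers overlap, so that reads may be split between them. The partner chain col6a2, 36208 bases from col6a1 on chromosome 11, was below the filter with 67, 45 and 87 mutant and 28, 21 and 48 wild type reads. In FPKM, col6a1 exceeded col6a2 by factors of 8.13 to 11.4 in the mutant and 13.4 to 52.5 in the wild type.

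Fibronectin was by far the most abundant transcript of the set. Its liver copy fn1b (ENSDARG00000006526, chromosome 1, 4806323 to 4845260, minus strand) stood at 1037, 845 and 805 FPKM in the mutant and 749, 801 and 806 in the wild type. The groups overlapped, and the log2 fold change of 0.18 did not pass (95% interval -0.14 to 0.50, limma adjusted p = 0.433). In the deposited event lists, the form of fn1b that includes the exon at 4818723 to 4819001 (279 bases) was listed at 0 in all 6 libraries. Mammalian plasma fibronectin made by hepatocytes lacks alternatively spliced extra domains, but the files do not say which domain this exon encodes. The other copy, fn1a, was at 1.3, 1.11 and 7.03 FPKM against 0.918, 1.09 and 2.99. Replicate 3 was the high library in both genotypes, and without mutant replicate 3 the sign of its log2 fold change turned from 0.43 to -0.19.

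Among the crosslinking enzymes the paralogues loxl2a and loxl2b stood on opposite sides of 0. The gene loxl2a (ENSDARG00000044010, chromosome 10, 20448331 to 20490054, minus strand) encodes a lysyl oxidase-like enzyme whose mammalian counterpart crosslinks collagens, type IV among them. It was at 4.72, 5.92 and 3.06 FPKM in the mutant and 6.96, 17.3 and 13.2 in the wild type. All mutant libraries were lower, and wild type replicate 1 was the closest to them. The means were 4.57 ± 1.43 and 12.5 ± 5.22 FPKM (SD, n = 3 each), a factor of 2.73, with a log2 fold change of -1.23 (standard error 0.32, limma adjusted p = 0.0486). The call held in 7 of 14 alternatives (adjusted p 0.018 to 0.141). Leaving out any mutant library lost it (0.109, 0.0728 and 0.111 for replicates 1 to 3), as did leaving out wild type replicate 2 (0.141) or 3 (0.102).

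In contrast loxl2b was at 1.81, 2.15 and 5.57 FPKM in the mutant and 1.49, 1.0 and 1.48 in the wild type. The mutant libraries were all higher, with mutant replicate 3 far above the rest, but the log2 fold change of 0.75 did not pass (95% interval 0.03 to 1.46, limma adjusted p = 0.159). Within a library the ratio of loxl2a to loxl2b was 2.61, 2.75 and 0.55 in the mutant and 4.67, 17.3 and 8.94 in the wild type. The collagen-binding glycoprotein sparc was at 6.25, 5.5 and 10.1 FPKM against 5.19, 4.75 and 5.24, again with all mutant libraries above (0.41, 95% interval -0.07 to 0.89, limma adjusted p = 0.238). Lysyl oxidase itself, loxa, had 3 reads in mutant replicate 3 and 0 in the other libraries.

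None of the 7 tested genes named for TGF-beta (ligands, receptors and tgfbi) passed the threshold, beside 11.4% of all tested genes. The ligand tgfb1b was at 1.71, 2.03 and 2.82 FPKM in the mutant and 1.24, 1.61 and 1.06 in the wild type, with the mutant above throughout (log2 fold change 0.46, 95% interval 0.05 to 0.87, limma adjusted p = 0.132). Its paralogue tgfb1a and the ligand tgfb3 had overlapping groups (-0.20 and 0.24). The receptors tgfbr1a, tgfbr1b and tgfbr2 overlapped as well, at 0.20, 0.01 and -0.09. Median scaling turned tgfbr1b to -0.03, and leaving out wild type replicate 1 turned tgfbr2 to 0.19.

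The most abundant gene of this group, tgfbi, encodes a secreted adhesion protein induced by TGF-beta in mammalian cells. It stood at 8.90, 23.9 and 16.1 FPKM in the mutant and 40.1, 36.1 and 26.5 in the wild type. All mutant libraries were lower, by a factor of 2.1 between means, but the log2 fold change of -1.10 did not pass (95% interval -1.86 to -0.35, limma adjusted p = 0.066). Leaving out mutant replicate 2, the highest of its group, brought it past the threshold (0.0393, the lowest of a range up to 0.181).

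Of the 85 genes below the filter, 36 had at least 10 reads in at least 3 libraries. With these included, limma voom on the recovered reads, an analysis added after the data had been seen, called 7 of 72 genes, which is 9.72% beside 9.1% of all 14962 genes so tested (4.63% higher, 4.46% lower). Higher in the mutant were col1a2, col18a1, lama4 and mmp14a, and lower were timp2a, loxl2a and loxhd1b. The added call, loxhd1b, belongs to no matrix process. It encodes a protein of inner ear hair cells in mammals that shares only the letters lox with the lysyl oxidases. It had 5, 4 and 8 reads in the mutant and 105, 89 and 87 in the wild type, a wide gap at low level (voom log2 fold change -4.00, standard error 0.51, limma adjusted p = 0.00444). With no filter on low values it was the only one of the 121 genes past the threshold (adjusted p = 0.0137), where 2.53% of all 23354 genes passed (1.23% higher, 1.31% lower).

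The collagens col14a1b, a fibril-associated collagen, and col12a1a, another of that class, were among the 5 genes below the filter with the most reads. Their counts were 138, 87 and 90 against 88, 74 and 57 for col14a1b, and 60, 66 and 221 against 32, 39 and 25 for col12a1a, the latter again with mutant replicate 3 far above the rest. The span of col14a1b overlaps 3 other genes. The laminin chain lama5 gave 53, 85 and 118 against 92, 59 and 91 reads and the lysyl oxidase-like gene loxl3b gave 82, 54 and 55 against 59, 28 and 57, with overlapping groups in both. The adamts-like gene adamtsl7 had 186, 139 and 14 reads in the mutant and 0, 0 and 11 in the wild type. Its mutant replicate 3 was close to wild type replicate 3, and the difference did not pass (voom log2 fold change 5.63, standard error 2.59, limma adjusted p = 0.205).

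Several adamts proteases below the filter, singled out after their values were seen, had groups that did not overlap. The mutant was above in some and below in others. The share of genes with such groups was worked out for tested genes only (33.8%), so there is none to set beside these low counts. The neighbouring aggrecanases adamts1 and adamts5, 10337 bases apart on chromosome 1 and on the same strand, had values on opposite sides. The reads were 32, 54 and 32 against 9, 22 and 13 for adamts1 and 12, 0 and 9 against 34, 24 and 32 for adamts5. For adamts9 they were 2, 5 and 6 against 32, 18 and 21. None passed the test on recovered reads (limma voom adjusted p = 0.105 for adamts1, 0.0907 for adamts5 and 0.0506 for adamts9).

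**Figure D4:**
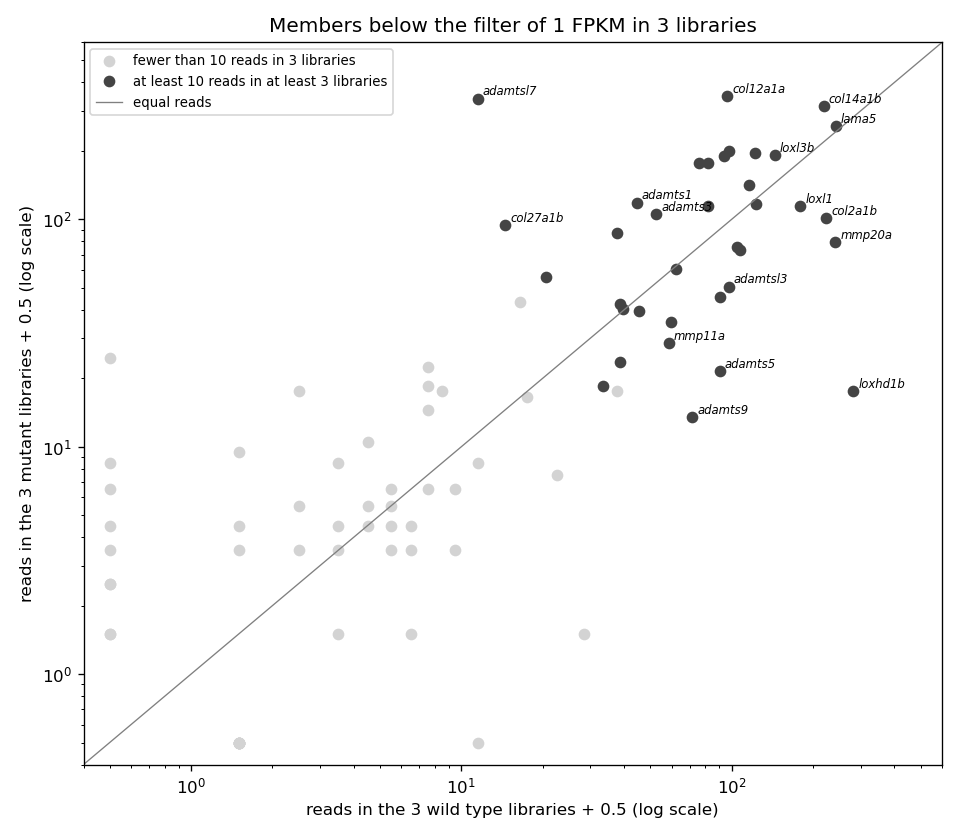
Reads summed over the 3 mutant libraries (y axis) and the 3 wild type libraries (x axis), each plus 0.5 on log scales, for the 85 genes below the filter, with darker points for genes with at least 10 reads in at least 3 libraries. The darker points lie on both sides of the line of equal reads, with loxhd1b farthest below it and adamtsl7 farthest above it among them.

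Beyond fn1b, the splicing data added little for these genes. In the event lists, 72 events with 2 forms were listed in all 6 libraries for them, 7 of these had at least 1 FPKM in every library, and 6 of the 7 were at 0% or 100% throughout. The exception belonged to col4a3bpa, a ceramide transfer protein gene named for binding a collagen chain. Its exon on chromosome 5 (50311953 to 50312030) was included at 63.3%, 70.4% and 71.0% in the mutant and 62.8%, 66.9% and 79.1% in the wild type, with overlapping groups. The levels of col4a3bpa and col4a3bpb also overlapped (log2 fold changes -0.14 and -0.23). The vesicle-tethering gene tgfbrap1 stayed below the filter.

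Of 16 tested genes of collagen synthesis and secretion, 1 was called higher and 3 lower. The counts for this and the other lists of related genes stand beside the 5.91% of all tested genes called higher and the 5.45% called lower. The collagen prolyl hydroxylase subunit p4ha3 fell from 28.5 ± 4.04 FPKM in the wild type to 11 ± 2.03 in the mutant (SD, n = 3 each, log2 fold change -1.3, standard error 0.17, limma adjusted p = 0.00613). Its partner p4hb, which is also protein disulfide isomerase, fell from 278 ± 30.3 to 141 ± 12.6 FPKM (-0.98, standard error 0.14, limma adjusted p = 0.0083). In both the groups were apart, with mutant values of 9.27 to 13.2 and 126 to 151 FPKM against 25.3 to 33.1 and 248 to 308. The procollagen C-proteinase enhancer pcolce2b, the gene called higher, was at 2.3, 1.48 and 1.86 FPKM in the mutant and 0.271, 0.122 and 0.345 in the wild type. It reached the filter of 1 FPKM through the mutant libraries alone, so it could enter the test only by being high there. Its relative pcolceb fell (-0.55, limma adjusted p = 0.0378). The span of pcolce2b overlaps trpc1 and pimr63. The calls of p4ha3 and p4hb held in every alternative, whereas that of pcolceb was lost in 10 of 13 (0.0248 to 0.129).

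Of 13 tested other matrix glycoproteins, 3 were called higher, 1 of them a gene that reached the filter through the mutant libraries alone, and 1 fell. Periostin (postnb), which marks activated fibroblasts in mammals, rose from 0.722 ± 0.266 to 3.08 ± 0.905 FPKM (SD, n = 3 each, log2 fold change 1.23, standard error 0.20, limma adjusted p = 0.0117), a call that held in all 13 alternatives. The elastic fibre gene emilin1a rose and ecm1b fell (0.66 and -0.78, limma adjusted p = 0.0238 and 0.0233), calls lost in 7 of 13 and 5 of 14 alternatives. The spans of these genes overlap stmn4 and cep76. Of 8 tested basement membrane linkers and cell-surface matrix binders (the latter sdc2, sdc4 and dag1), 2 were called higher and none lower. The cell-surface proteoglycan gene sdc4 was at 37.7, 71.4 and 35.7 FPKM in the mutant and 24.5, 19.3 and 23.1 in the wild type. Mutant replicate 2 was far above the rest. Its log2 fold change was 1.01 (limma adjusted p = 0.0474), a call lost in 8 of 14 alternatives (0.0369 to 0.151). The other, nid2a, was at 2.08, 3.46 and 1.75 FPKM against 0.732, 0.359 and 0.786, and it too reached the filter through the mutant libraries alone. Its call was lost in 5 of 13 alternatives. The only tested fibril-binding proteoglycan, bgnb, did not pass (-0.24, limma adjusted p = 0.427).

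Of 23 other tested matrix proteases and inhibitors, 2 rose and 1 fell. Cathepsin K (ctsk), a lysosomal collagenase, rose from 8.29 ± 2.29 to 23.1 ± 3.42 FPKM (SD, n = 3 each, log2 fold change 1.4, standard error 0.20, limma adjusted p = 0.00795). The plasmin inhibitor gene serpinf2b rose (0.82, limma adjusted p = 0.00933), both calls holding in all 14 alternatives, and the broad protease inhibitor gene a2ml fell (-1.07, limma adjusted p = 0.0145, 0.00818 to 0.0546 over the alternatives). Of 8 tested integrins and collagen receptors, itgb1b.2 fell (-0.84, limma adjusted p = 0.0195), and its span overlaps itgb1b.1. Of 19 tested TGF-beta signalling genes, id2a rose (0.73, limma adjusted p = 0.039) and none fell. This call was lost in 7 of 14 alternatives (0.0236 to 0.125).

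Markers of other cells also differed between the genotypes, beside 5.91% of all tested genes called higher and 5.45% lower. Of 18 tested macrophage markers 8 were called higher and of 10 tested neutrophil markers 6, with none lower in either list, and 2 of these neutrophil markers reached the filter through the mutant libraries alone. Their summed levels were 451 to 734 FPKM in the mutant against 269 to 466 in the wild type for macrophages, and 87.2 to 180 against 55.5 to 158 for neutrophils. Without cpa5, its most abundant gene, which the exocrine pancreas list shares, the neutrophil list summed to 77.5 to 131 against 44.8 to 57.3. That list also held mmp9 and mmp13a, the proteases left out by the rule, the latter among its calls. Of 11 bile duct markers 2 rose (649 to 810 FPKM against 489 to 519). Without krt8, the most abundant gene of that list, the sums overlapped (271 to 331 against 244 to 286). Of 9 erythrocyte markers 6 were called lower (202 to 222 against 370 to 434). Of these calls, 2 were genes that reached the filter through the wild type libraries alone. Of 25 hepatocyte markers 4 rose and 3 fell. Exocrine pancreas markers varied between libraries, from 262 to 1856 FPKM with wild type replicate 1 the highest. The 1 of 18 called higher reached the filter through the mutant libraries alone. Of skeletal muscle markers 17 of 18 stayed under 1 FPKM in all libraries, and the other, acta1a, was at 2.15, 4.83 and 2.76 FPKM in the mutant and 0.0778, 0.0 and 0.0 in the wild type. Of 4 tested skin and skeleton markers 1 rose and 1 fell. The part of these cells in the values of mmp14a, mmp11b, timp2a and loxl2a was not tested.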

How the data were processed

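Livers of adult capn3b-/- and wild type AB zebrafish (3 libraries each) were sequenced on standard Illumina libraries made from column-purified total RNA, as the labels' protocols state. The authors deposited FPKM values for 23354 genes and, per library, event lists (exon skipping, intron retention, exon ends, transcript starts and ends) that give an FPKM per form. The submitters' processing notes name DESeq2 and the build GRCz11, and the aligner, counter and strand setting were not given in the sources used here. No value column was left unmapped to a sample.

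FPKM values are not counts, so log2(FPKM + 1) was tested with limma 3.58.1 (R 4.3.3): a two-sided linear model of genotype with an intensity trend, over the genes that reached 1 FPKM in 3 or more of the 6 libraries, Benjamini-Hochberg adjusted over 11164 genes, threshold 0.05. Reads were recovered from the steps between FPKM values of a gene, which gave whole reads for 100% of genes. The voom fits on these reads called 1387 of 11164 genes and, after a filter of 10 reads in 3 libraries, 1361 of 14962. Both procedures were tested on simulated data. Intervals cover 95%, and the depth of a gene sets the precision of its value. Python 3.11.15 with numpy 2.4.6, pandas 2.3.3 and matplotlib 3.10.9 did the rest.

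Alternatives were no filter, a filter of 5 FPKM, a pseudocount of 0.1, median scaling, quantile normalization, a replicate block, voom, and each library left out in turn. The voom fit over genes with 10 reads was chosen after seeing the data. Genes named are every one past the threshold, the 3 most abundant tested per role, the 5 below the filter with the most reads, and the 3 smallest p-values of each pathway list past the threshold. Others were named after their values were seen. The genes and the pathway and cell marker lists were chosen with earlier results of these data known, so counts over them are descriptions. Rows with a name in capitals were not analysed here.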

Additional observations from a re-analysis of the deposited data

How the results depend on the processing

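The 4 calls (2 higher, 2 lower, 2 of them proteases) depended on the setting. With no filter 592 genes (2.53%) passed in all, 1 of them in this set (0 higher, 1 lower, 0 proteases). With a filter of 5 FPKM 2 passed (0 higher, 0 proteases), where only 14 were tested. This was 14.3%, beside 18% of all 5112 genes so tested. A pseudocount of 0.1 left 1 lower, and median scaling and quantile normalization each left 1 higher, a protease. In this order these settings called 10.6%, 12.7% and 12.4% of all tested genes, beside 8.33% of this set in each. With voom on recovered reads 4 were higher, with 1 fibrillar collagen, 2 basement membrane genes and 1 protease. With a filter of 10 reads 7 passed, 4 of them higher, again with 1, 2 and 1. The shares called by voom were 16.7% beside 12.4% of all genes, and with the filter of 10 reads 9.72% beside 9.1%. Leaving out each library in turn gave 414 to 1134 calls over all genes, 0 to 2 in this set, 0 to 1 higher, 0 to 2 lower and 0 to 1 protease, with no fibrillar collagen or basement membrane gene called. Some settings also leave fewer genes or samples, and the causes of these differences were not tested.

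Replicate numbers recur in both genotypes. Over all 11164 genes the same-numbered libraries did not deviate together (r = -0.045, -0.01 and -0.083), but this does not describe single genes. Replicate 3 was the highest library of both genotypes for col1a1a, col1a1b, col1a2 and col5a2a, though not for col5a1 or col24a1. Whether same-numbered libraries were handled together was not tested. With the replicate number as a block 950 genes passed (8.51%), with 4 in this set, 2 of them fibrillar collagens (col1a1a and col1a2) and 0 proteases, beside loxl2a and timp2a. No library correlated best with its own number.

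Over single genes and settings, 423 results kept direction and side, 30 lost the threshold, 10 gained it and 19 changed sign. The sign changes, all in genes not past the threshold, were as follows. For col5a1 the log2 fold change became -0.01 with a pseudocount of 0.1 and in both voom fits, -0.04 with median scaling and with quantile normalization, and ran from -0.33 to 0.44 over the fits that leave out a library, below 0 in 4 of them. For tgfbr1b it became -0.03 and -0.06 with those scalings and ran from -0.15 to 0.10 without single libraries. The corresponding ranges were -0.35 to 0.19 for tgfbr2, -0.50 to 0.02 for mmp14b, -0.27 to 0.09 for col4a3bpa, -0.21 to 0.10 for col6a3 and -0.19 to 0.77 for fn1a. Scaling moved the median of all genes by less than 0.1.

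The 49 genes with fewer than 10 reads in at least 4 libraries were tested in the fit with no filter alone, and depth limits what can be said of them.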
